A study of Mus musculus with 24 samples.

Results

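The 7 genes described here encode intermediate filament proteins of neural cells: the neurofilament light, medium and heavy chains (Nefl, Nefm and Nefh), alpha-internexin (Ina), peripherin (Prph), nestin (Nes) and vimentin (Vim). They were taken by name, and each was represented by its single-symbol probe set with the highest mean. All 7 were measured on both array platforms, among 19938 genes on one and 18194 on the other. Mouse embryonic stem cells (ES) were taken in culture to the stage of neuronal progenitors (NP) and on to terminal neurons (TN). Their total RNA was hybridized to Affymetrix arrays. The larger platform held 18 arrays of the strain Black Agouti 129, with 3 arrays in each of 6 groups: ES RESTko, ES RESTwt, NP RESTko, NP RESTwt, TN RESTko and TN RESThet. RESTko stands for knock-out, RESThet for heterozygous knock-out and RESTwt for wildtype cells of REST, a repressor of neuronal genes. TN was therefore compared with heterozygous cells and the earlier stages with wildtype cells. The other platform held 6 wildtype arrays, 2 for each of these stages, and their strain was mixed 129Sv-C57Bl/6. The sources used here do not state how the allele was made, how many clones there were or the day of harvest. The labels speak of biological replicates without naming separate cultures, so p-values measure only the spread between these arrays.

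Intermediate filaments are rope-like polymers that give a cell mechanical strength. In axons, the light chain and alpha-internexin form the filament core, and the long tails of the medium and heavy chains project from it and set the spacing of filaments, with which axons grow in calibre. Dividing neural progenitors instead hold nestin and vimentin, which young neurons replace with internexin and the neurofilament chains, the heavy chain coming last. Peripherin is best known from neurons of the peripheral nervous system and from motor neurons. REST binds a DNA element called RE1 and recruits corepressors that keep neuronal genes silent outside neurons.

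Values are deposited log2 signals. Differences are given with the standard error (SE) of limma, whose moderated test is two-sided, and a gene was called where its p, adjusted by Benjamini-Hochberg over all genes, was under 0.05. A difference of 1 on this scale is a doubling of signal. Signals of different probe sets are not comparable as amounts, so levels were set against each other only within a gene. In RNA from whole cultures, more cells of a type and more RNA per cell cannot be told apart.

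Signals of Rest itself were lower in RESTko arrays at ES (-0.36, adjusted p = 0.00234, limma) but not at later stages. They were not called at NP (-0.01, adjusted p = 0.958, limma) and were higher in RESTko at TN (0.34, adjusted p = 0.0187, limma). Even at ES, Rest in RESTko arrays stood 86.7 to 87.5% of the way up the ranked genes of an array. It lay at 8.53 to 8.66 in the ES arrays labelled RESTko and at 8.95 to 8.99 in those labelled RESTwt. At NP it lay at 7.40 to 7.57 in RESTko and at 7.45 to 7.51 in RESTwt arrays, and at TN at 7.28 to 7.46 in RESTko and at 7.01 to 7.07 in RESThet arrays. The exons under these probes are unknown here, so the genotypes below are those of the labels. Stage markers followed the stage labels. Summed signals of 12 neuron markers were 19346 to 22579 at TN and 3452 to 6731 at NP, while 9 pluripotency markers summed to 18390 to 20999 at ES and 831 to 2177 at NP. The NP arrays still held pluripotency signal, at 831 to 2177 in RESTko and 1106 to 2158 in RESTwt arrays. At TN, 8 fibroblast markers summed to 4623 to 6590, against 797 to 1257 at NP. Among 9 measured astrocyte and oligodendrocyte markers, 2 in RESTko and 3 in RESThet TN arrays stayed below the array median. All 5 microglia markers stayed below it in every group.

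Promoter sequences (250 bases before the start to 50 after) were taken from RefSeq, build GRCm38.p6, for the 4 members that matched: Ina, Prph, Nes and Vim. Those of Ina, which was called at ES and NP, and of Prph, which was called in no comparison of genotypes, are shown as an example of each. Capitals mark matches on either strand to 5 short motifs: CAGCACC and GGACAG, taken from the left and right parts of RE1, the TATA box TATAAA, the CCAAT box CCAAT and the GC box GGGCGG.
Ina promoter, chr19:47014431-47014730, plus strand: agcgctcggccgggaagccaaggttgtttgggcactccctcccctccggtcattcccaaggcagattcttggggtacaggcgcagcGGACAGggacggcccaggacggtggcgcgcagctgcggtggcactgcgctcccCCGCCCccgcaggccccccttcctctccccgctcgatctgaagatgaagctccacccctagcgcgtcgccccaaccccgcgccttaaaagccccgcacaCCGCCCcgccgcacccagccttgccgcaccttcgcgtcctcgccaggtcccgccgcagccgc
Prph promoter, chr15:99054924-99055223, plus strand: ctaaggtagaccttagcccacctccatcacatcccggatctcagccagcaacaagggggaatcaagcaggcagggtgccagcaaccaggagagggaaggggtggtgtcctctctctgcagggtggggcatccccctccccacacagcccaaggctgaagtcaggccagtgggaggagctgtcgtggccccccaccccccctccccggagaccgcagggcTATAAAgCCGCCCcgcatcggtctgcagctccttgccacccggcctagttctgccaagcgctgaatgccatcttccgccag
The Ina promoter held GGACAG at positions -164 to -159 from the start and 2 GC boxes in reverse. The Prph promoter held a TATA box at positions -31 to -26 and 1 GC box in reverse. Vim also had a TATA box (-32 to -27), with 2 CCAAT boxes, and Nes had 2 GC boxes. None of the 4 windows held CAGCACC. Of 32851 RefSeq promoters of this length, 22.2% held GGACAG, 7.14% CAGCACC, 13.6% TATAAA, 37.4% CCAAT and 35.7% GGGCGG. The GC content was 71.7% for Ina and 64.7% for Prph, against a median of 52.7% over all promoters. Letters in so short a window are a description and not a binding site.

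In ES cells, the comparison of RESTko with RESTwt asks whether filament genes of neurons were already raised before the neuron stage. Whether these cultures held any neurons was not tested. All 3 neurofilament chains, internexin and nestin were higher in the arrays labelled RESTko, by 1.68-fold to 2.40-fold, while the calls for peripherin and vimentin missed the threshold. The 5 calls among 7 members stand against 9.24% of all 19938 genes called, 5.19% higher and 4.05% lower. Arrays of the 2 genotypes did not overlap for 6 members and for 29.4% of all genes. The median difference was 0.78 over the 7 members and -0.03 over all genes.

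Nefl, the light chain, had signals of 6.39, 6.53 and 5.78 in the RESTko arrays a, b and c, against 5.19, 5.29 and 4.79 in the RESTwt arrays. Each RESTko array lay above all RESTwt arrays, and array c was the lowest of either group. The difference was 1.14 (SE 0.19, adjusted p = 0.000753, limma). Nefm, the medium chain, whose gene neighbours Nefl on chromosome 14 with no coding gene between them in RefSeq, had 5.79, 5.61 and 5.15 in RESTko arrays, against 4.37, 4.31 and 4.07 in RESTwt arrays. Here too array c was the lowest of both groups and the groups did not overlap, with a difference of 1.27 (SE 0.19, adjusted p = 0.00027, limma). At 28.1 to 34.8% of the way up the ranked genes of an array, Nefm in RESTwt ES cells was a dim signal, and such signals can understate a fold change.

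Nefh, the heavy chain on chromosome 11, had 7.19, 7.22 and 7.24 in RESTko arrays, against 6.45, 6.58 and 6.29 in RESTwt arrays. The RESTko arrays were nearly identical and all above the RESTwt arrays (difference 0.78, SE 0.13, adjusted p = 0.000931, limma). Ina, on chromosome 19, had 9.26, 9.24 and 9.18 in RESTko arrays, against 8.25, 8.15 and 7.95 in RESTwt arrays. This was the best supported member at ES, with a 2.16-fold difference (1.11, SE 0.14, adjusted p = 4.14e-05, limma), and a second probe set of Ina differed by 1.43. Prph, on chromosome 15, had 6.67, 6.59 and 6.59 in RESTko arrays, against 6.54, 6.45 and 6.25 in RESTwt arrays. The groups did not overlap, yet the difference of 0.20 was small (95% interval -0.04 to 0.45, adjusted p = 0.343, limma).

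Nes, the progenitor filament gene on chromosome 3, had 6.28, 6.09 and 6.40 in RESTko ES arrays, against 5.74, 5.50 and 5.28 in RESTwt ES arrays. It was called higher, by 0.75 (SE 0.18, adjusted p = 0.0129, limma). The call ended without RESTko array c (adjusted p = 0.0572) and without RESTwt array c (0.0795). Vim, on chromosome 2, had 9.73, 9.63 and 8.93 in RESTko arrays, against 9.10, 9.15 and 8.76 in RESTwt arrays. RESTko array c fell among the RESTwt arrays. Vim differed by 0.43 (adjusted p = 0.119, limma), or by 0.68 without that array (adjusted p = 0.00217), and it was called with array weights (adjusted p = 0.0302).

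**Figure D1:**
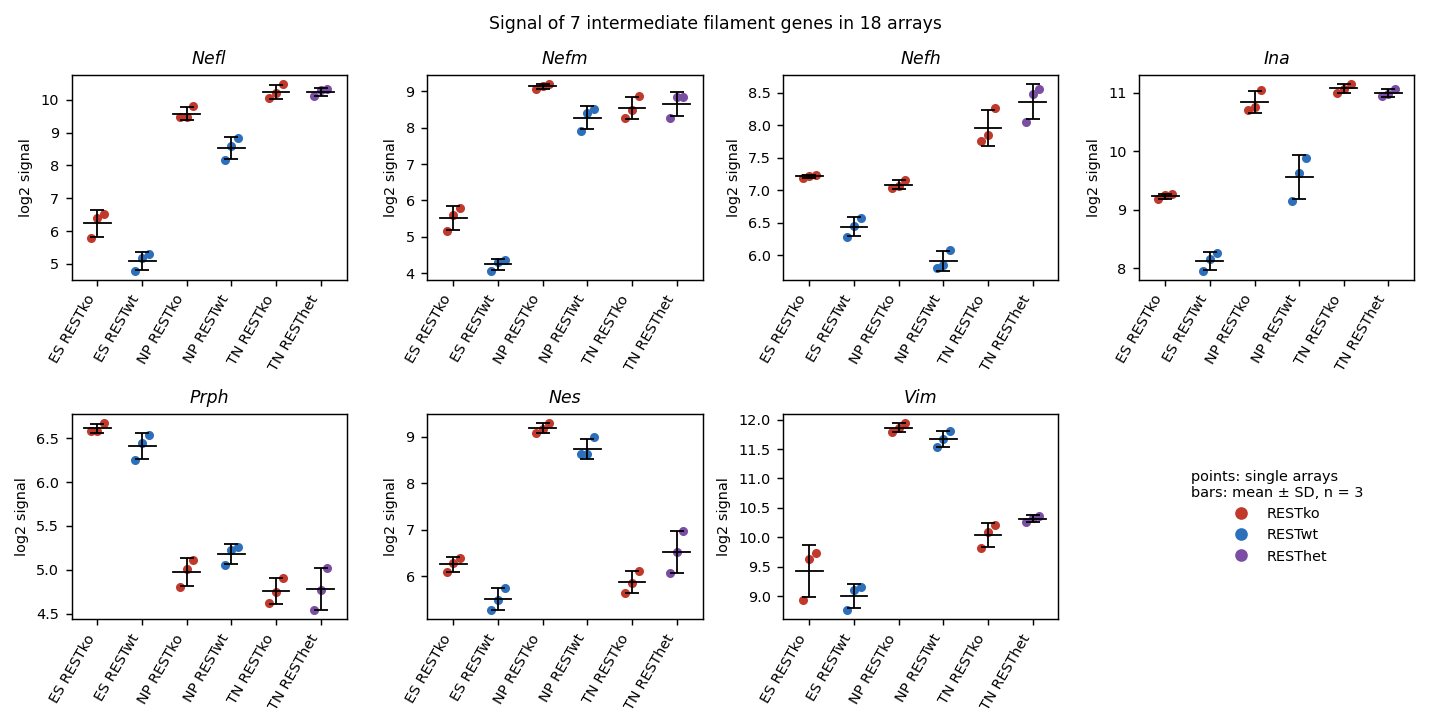
Log2 signals of the 7 genes (vertical axes) on 18 arrays, by stage and labelled genotype (horizontal axes). Points are single arrays and bars show mean ± SD (n = 3). Nefl, Nefm, Nefh and Ina lay higher in RESTko than in RESTwt arrays at ES and NP without overlap, while the RESTko and RESThet arrays at TN overlapped for these genes.

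Genes that work with these filaments were described from lists. Of 12 other intermediate filament genes, 5 rose at ES and 0 fell, with a median difference of 0.22. The epithelial keratins Krt8 (1.60) and Krt18 (1.55) led them, and the nuclear lamin gene Lmna rose by 0.70. Of 16 listed genes that act on neurofilaments, 13 were measured, all of them kinases, kinase activators or motors, and 2 of these rose and 0 fell: the kinesin heavy chain Kif5c (0.84), a carrier in axons, and the myosin Myo5a (0.29). Of 6 measured linker and turnover genes, 1 rose, the cytolinker Dst (0.48), and 0 fell.

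Of 12 neuron markers, 5 rose at ES and 0 fell, led by Syp (2.72) and Snap25 (2.13), both of synaptic vesicle release. Their summed signal was 1692 to 1919 in RESTko arrays and 1160 to 1228 in RESTwt arrays. The neuronal splicing factor Rbfox3, and Dcx, Elavl4 and Slc17a6, stayed below the array median in both groups. Markers of another kind of cell moved as well: 4 of 5 smooth muscle markers rose, with summed signals of 447 to 689 in RESTko arrays and 235 to 307 in RESTwt arrays. RESTko array c was the lowest of its group for Nefl, Nefm, Ina and Vim and the highest for Nefh and Nes. Its sums of smooth muscle, neuron, neural progenitor and fibroblast markers were each the lowest of that group. Of 9 pluripotency markers, 0 rose and 2 fell, Zfp42 (-0.99) and Fgf4 (-0.60), and their sums did not overlap, at 18390 to 19400 in RESTko arrays and 20258 to 20999 in RESTwt arrays. Of 8 fibroblast markers, 0 rose and 0 fell, and 5 stayed below the array median in both groups. Of 12 neural progenitor markers, 1 rose and 1 fell, with summed signals of 2948 to 3052 in RESTko and 2878 to 3141 in RESTwt arrays. The part of these markers in the members' differences at ES was not tested.

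In progenitors the question was the same at a later stage. Between ES and NP, 11 of 12 neural progenitor markers had risen and 1 had fallen, in RESTko and in RESTwt cells. All 7 endoderm markers had risen as well in both. Again Nefl, Nefm, Nefh and Ina rose, by 1.81-fold to 2.44-fold, whereas Nes, Vim and Prph were not called. The 4 calls among 7 members stand against 8.03% of all genes called, 4.32% higher and 3.71% lower. Arrays did not overlap for 5 members and for 21.9% of all genes. The median difference was 0.86 over the members and 0.01 over all genes.

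Nefl had 9.80, 9.46 and 9.48 in the RESTko arrays a, b and c, against 8.59, 8.15 and 8.82 in the RESTwt arrays. The groups stood apart (difference 1.06, SE 0.19, adjusted p = 0.00213, limma), and array b was the lowest in both. Nefm had 9.06, 9.15 and 9.19 in RESTko arrays, against 8.40, 7.91 and 8.51 in RESTwt arrays. The difference of 0.86 (SE 0.19, adjusted p = 0.00872, limma) was no longer called without RESTwt array b (0.68, adjusted p = 0.0603), the lowest of the group.

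Nefh had 7.03, 7.17 and 7.06 in RESTko progenitors, against 5.86, 6.08 and 5.80 in RESTwt progenitors. The gap between the groups was wider than the spread within either (difference 1.17, SE 0.13, adjusted p = 2.27e-05, limma). Ina had 11.05, 10.76 and 10.70 in RESTko arrays, against 9.89, 9.14 and 9.62 in RESTwt arrays. It showed the largest difference of the 7 genes at NP, at 1.28 (SE 0.14, adjusted p = 1.17e-05, limma), and its second probe set gave 1.27.

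Nes had 9.17, 9.29 and 9.08 in RESTko progenitors, against 8.62, 8.62 and 8.99 in RESTwt progenitors. The arrays did not overlap, but RESTwt array c came close to the RESTko group, and the difference of 0.43 (SE 0.18) was not called (adjusted p = 0.185, limma). Vim had 11.78, 11.94 and 11.85 in RESTko arrays, against 11.68, 11.53 and 11.80 in RESTwt arrays, which overlapped (difference 0.19, 95% interval -0.15 to 0.53, adjusted p = 0.615, limma). Prph had 5.11, 4.81 and 5.01 in RESTko arrays, against 5.23, 5.26 and 5.05 in RESTwt arrays. It was the only member with a lower mean in RESTko at NP, by -0.20 (adjusted p = 0.381, limma), and its groups overlapped.

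**Figure D2:**
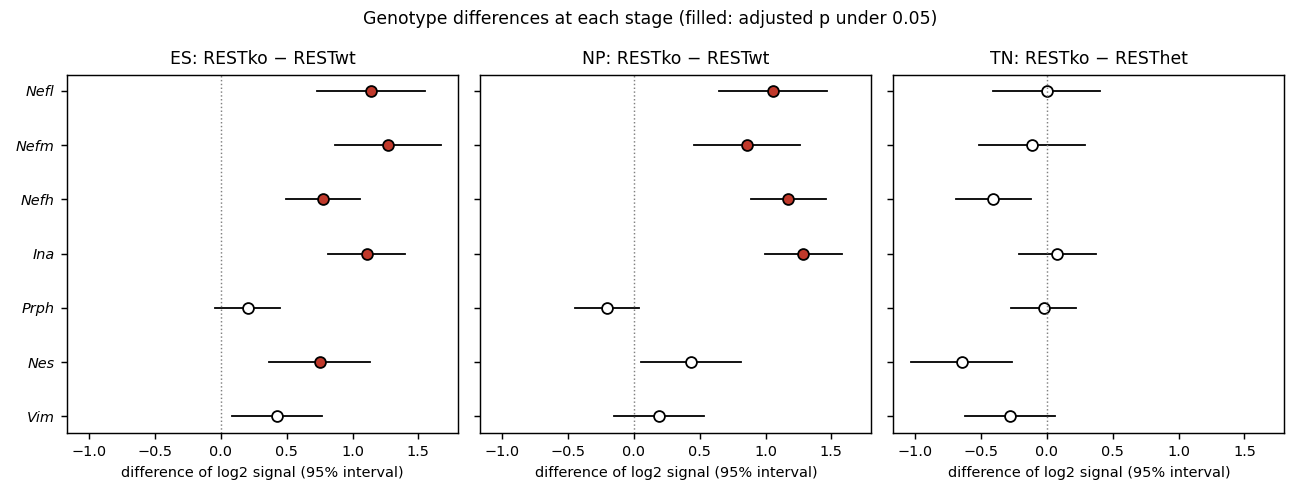
Differences of log2 signal between labelled genotypes (horizontal axes) for each gene (rows) at ES, NP and TN, with 95% intervals. Filled points were called. Differences at ES ran between 0.20 and 1.27 and at NP between -0.20 and 1.28, and no point was filled at TN.

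Of the 13 genes that act on neurofilaments, 4 rose at NP and 0 fell, with a median of 0.23. They were the stress kinase gene Mapk10 (0.93), the kinesin gene Kif5a (0.90), whose protein carries neurofilaments along axons, Cdk5r1 (0.83), the activator of the tail kinase Cdk5, and Kif5c (0.65). Of the 6 linker and turnover genes, 1 rose and 1 fell: the ubiquitin ligase gene Trim2 (0.47), whose protein binds the light chain, and the epithelial linker Eppk1 (-0.45). Of the 12 other intermediate filament genes, 0 rose and 4 fell, all keratins, led by Krt19 (-1.27) and Krt7 (-1.002). The same 4 keratins had risen at ES, and their effect at NP was lower than at ES by -1.80 for Krt7, -2.41 for Krt18, -2.52 for Krt19 and -2.57 for Krt8 (limma, adjusted p = 0.00014 to 0.000719).

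Of the 12 neuron markers, 7 rose at NP and 0 fell. Their summed signal was 5205 to 6731 in RESTko arrays and 3452 to 5074 in RESTwt arrays. RESTwt array b, lowest for Nefl, Nefm and Ina but highest for Nefh, was also the lowest of its group in this sum. RESTko array a, highest for Nefl and Ina but lowest for Nefm and Nefh, was the highest of its group. Of 12 neural progenitor markers, 0 rose and 0 fell, with summed signals of 5406 to 6152 in RESTko and 4545 to 5568 in RESTwt arrays. Of 8 fibroblast markers, 0 rose and 3 fell, led by Dcn (-1.16), and of 5 smooth muscle markers 0 rose and 2 fell. The part of a differing content of neurons in the members' differences was not tested.

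At TN, RESTko neurons were compared with RESThet neurons, and 0 of the 7 members were called by limma, with 2 at an unadjusted p under 0.05. Of all 19938 genes, 1.16% were called, 0.356% higher and 0.802% lower, and 2342 had an unadjusted p under 0.05. Nefl had 10.48, 10.20 and 10.05 in RESTko arrays, against 10.11, 10.29 and 10.34 in RESThet arrays, and its means differed by less than 0.01 (95% interval -0.41 to 0.40). Ina had 11.15, 11.002 and 11.07 in RESTko arrays, against 11.07, 10.94 and 10.98 in RESThet arrays. The interval of the Ina difference was -0.21 to 0.37, so at TN a difference of the size seen at NP lay outside it. Nefm had 8.85, 8.48 and 8.25 in RESTko arrays, against 8.26, 8.84 and 8.84 in RESThet arrays. Its interval (-0.52 to 0.29) did not reach its NP value. The direct test of a changed effect between NP and TN was, however, not called for Nefm (adjusted p = 0.0522, limma).

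Nefh had 8.27, 7.85 and 7.76 in RESTko neurons, against 8.05, 8.56 and 8.48 in RESThet neurons. Its mean was lower in RESTko, by -0.41 (SE 0.13, adjusted p = 0.194, limma), with 1 RESTko array inside the RESThet range. It passed the threshold only when RESThet array a was left out (-0.56, adjusted p = 0.0478). Nes had 5.64, 6.12 and 5.87 in RESTko arrays, against 6.53, 6.07 and 6.97 in RESThet arrays, a difference of -0.65 (SE 0.18, adjusted p = 0.112, limma). Without RESThet array b, the lowest of its group, it was called (-0.87, adjusted p = 0.0169). Vim had 9.81, 10.20 and 10.09 in RESTko arrays, against 10.25, 10.36 and 10.33 in RESThet arrays. Vim was the only member whose TN groups did not overlap, as did not those of 16% of all genes, and its difference of -0.28 was not called (adjusted p = 0.548, limma). Prph lay at 4.62 to 4.91 in RESTko and at 4.54 to 5.02 in RESThet arrays.

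Of the lists of other intermediate filaments, linkers and genes that act on neurofilaments, 0 members were called at TN. Of the 12 neuron markers, 1 fell, the vesicular glutamate transporter Slc17a6 (-0.83), and 0 rose. Their summed signal was 19346 to 20487 in RESTko arrays and 20758 to 22579 in RESThet arrays. Neural progenitor markers, of which Prom1 fell (-0.73) and 0 rose, summed to 2520 to 3500 in RESTko and 3228 to 4595 in RESThet arrays. RESTko array a was the lowest of its group for both Nes and this sum, and RESThet array c the highest. The part of progenitors remaining at TN in the Nes and Vim values was not tested.

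**Figure D3:**
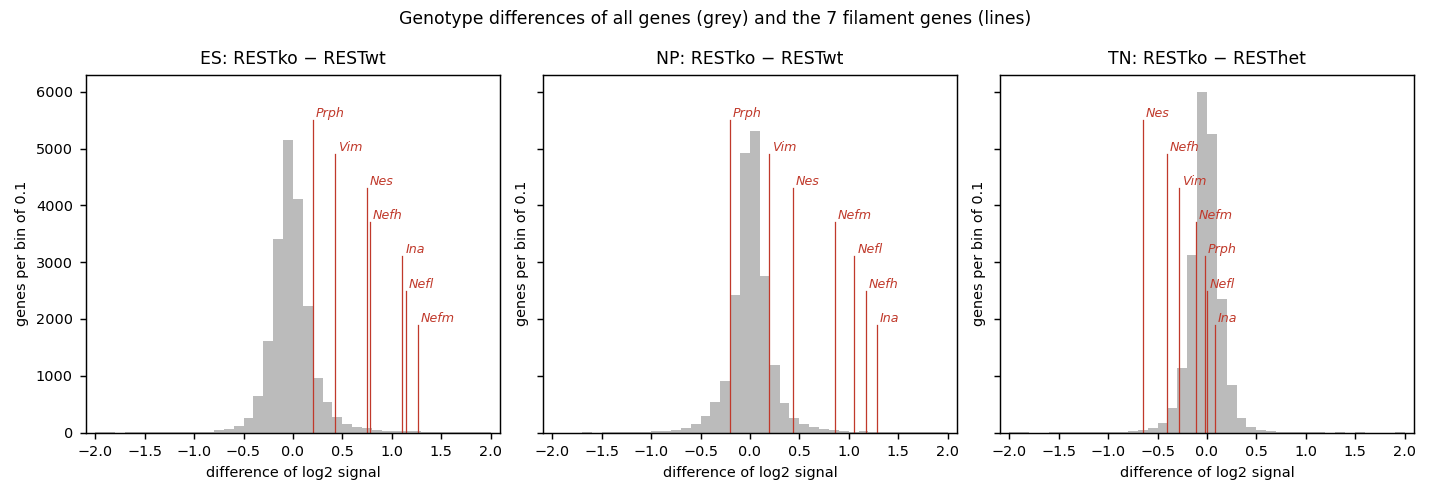
Number of genes per bin of 0.1 (vertical axes) by difference of log2 signal between labelled genotypes (horizontal axes) at ES, NP and TN, with the 7 filament genes as vertical lines. Nefl, Nefm, Nefh and Ina stand in the right tail at ES and NP, whereas at TN the lines lie between -0.65 and 0.08.

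The change of the genotype effect between stages was tested directly. Between ES and NP, 1 of 7 members had an unadjusted p under 0.05 for a changed effect, against 3384 of all 19938 genes (limma). After adjustment 0 members differed in effect, against 4.87% of all genes, 2.31% with a higher and 2.55% with a lower effect at NP. The nearest were Prph (-0.41, adjusted p = 0.2) and Nefh (0.40, SE 0.19, adjusted p = 0.3). Between NP and TN, where the compared genotype also changes between RESTwt and RESThet, the effect was lower at TN for Nefh (-1.58, SE 0.19, adjusted p = 9.3e-05, limma), Ina (-1.21, SE 0.20, adjusted p = 0.00167), Nes (-1.08, adjusted p = 0.0248) and Nefl (-1.06, adjusted p = 0.0377). Nefm missed the threshold (-0.97, adjusted p = 0.0522) and passed it without NP RESTwt array c, TN RESThet array a or TN RESTko array a (adjusted p = 0.0199 to 0.0383). Over all genes the effect differed for 3.91%, lower at TN for 2.51% and higher for 1.4%. The calls of Nefh and Ina held under each alternative run, although the second probe set of Ina missed the threshold (-1.03, adjusted p = 0.0542), while those of Nefl and Nes did not. Leaving out any of 8 arrays ended the Nefl call (adjusted p up to 0.1, without NP RESTko array a), and any of 5 arrays that of Nes (adjusted p up to 0.0659, without NP RESTwt array b).

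Set against the neuron level, the raised signals were partial at ES. On the log2 scale, the RESTko ES mean of Nefl covered 22.1% of the gap between RESTwt ES cells and RESThet neurons. The share was 28.8% for Nefm, 38.5% for Ina and 40.3% for Nefh. For Nes, which was also called at ES, it was 73.8% of a gap of 1.02. At NP the same share of the gap between RESTwt progenitors and RESThet neurons was 47.9% for Nefh, 61.3% for Nefl and 88.9% for Ina. Nefm in RESTko progenitors, at 9.13 ± 0.06 (SD, n = 3), exceeded both neuron groups, at 8.53 ± 0.30 in RESTko and 8.65 ± 0.33 in RESThet (n = 3 each).

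The order of the 6 group means differed between the members. Nefl was lowest in ES RESTwt and then, in rising order, in ES RESTko, NP RESTwt, NP RESTko and both TN groups, and only the TN groups overlapped in their arrays. Ina followed the same order of stages, but its arrays overlapped between ES RESTko and NP RESTwt and among NP RESTko and both TN groups. Nefm had the same 3 lowest groups, and NP RESTwt overlapped with both TN groups below the top group, NP RESTko.

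Nefh was ordered by genotype before the neuron stage: NP RESTwt was lowest, followed by ES RESTwt, NP RESTko and ES RESTko with no overlap between neighbours, and the TN groups stood on top. Prph ran the other way, highest in both ES groups and lowest in the TN groups, whose arrays overlapped with each other and with NP RESTko. Nes and Vim were highest in the NP groups. The 4 groups of ES and TN overlapped in a chain for Nes, whereas for Vim the TN groups lay above the ES groups.

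The steps between stages were followed in cells labelled RESTko and in cells labelled RESTwt, with RESThet in place of RESTwt at TN. On this platform the titles of the TN arrays carry a different prefix from those of the ES and NP arrays. The labels do not explain the prefix, and its part in the steps was not tested. Between ES and NP, 5 members rose and 2 fell in RESTwt cells, and 5 rose and 1 fell in RESTko cells. These steps changed most genes: 66% of all genes were called in RESTko (32.2% higher, 33.9% lower) and 67.1% in RESTwt (31% higher, 36.1% lower), so a call alone says little. Nefm rose 12.3-fold in RESTko and 16.3-fold in RESTwt cells, Nefl 10.2-fold in RESTko and 10.8-fold in RESTwt cells, and Nes 7.57-fold in RESTko and 9.43-fold in RESTwt cells (limma, each adjusted p at or under 1.16e-10). Vim rose 5.39-fold in RESTko and 6.36-fold in RESTwt cells, and Ina 3.05-fold in RESTko and 2.70-fold in RESTwt cells. Prph fell, by -1.64 in RESTko and -1.23 in RESTwt cells. Nefh was the exception among the neurofilament chains: it fell by -0.53 in RESTwt cells (adjusted p = 0.00221, limma) and was not called in RESTko cells (-0.13, adjusted p = 0.411).

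Between NP and TN the course parted. In this step the median of all genes was 0.13 in RESTko cells and 0.14 between NP RESTwt and TN RESThet, and most genes were called. In RESTko cells 71% were called (41.8% higher, 29.2% lower), and 73.1% in the step between NP RESTwt and TN RESThet (43.2% higher, 29.9% lower). Nefh rose by 0.87 in RESTko cells, against 2.45 between NP RESTwt and TN RESThet, and Nefl by 0.67 in RESTko cells, against 1.72 in that other step. Ina was not called in RESTko cells (0.24, adjusted p = 0.131, limma), where the step was called with quantile normalization (0.66, adjusted p = 0.000366), array weights (0.041) or without NP RESTko array a (0.0472), and rose by 1.44 between RESTwt progenitors and RESThet neurons. Nefm fell by -0.60 in RESTko cells (adjusted p = 0.00936, limma), a call that ended without TN RESTko array c (adjusted p = 0.058), and was not called in the other step (0.37, adjusted p = 0.0885), except without NP RESTwt array c (0.0464) or TN RESThet array a (0.0158). The rise of Nefl in RESTko cells was not called after median centring (0.43, adjusted p = 0.0632). The progenitor filaments fell in both: Nes by -3.30 in RESTko cells and -2.22 in the other step, and Vim by -1.82 in RESTko cells and -1.36 in the other step. Prph fell between RESTwt progenitors and RESThet neurons (-0.40, adjusted p = 0.00527, limma) and was not called in RESTko cells (-0.22, adjusted p = 0.103), except with quantile normalization (0.00128), median centring (0.00186) or without NP RESTko array b (0.0433).

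**Figure D4:**
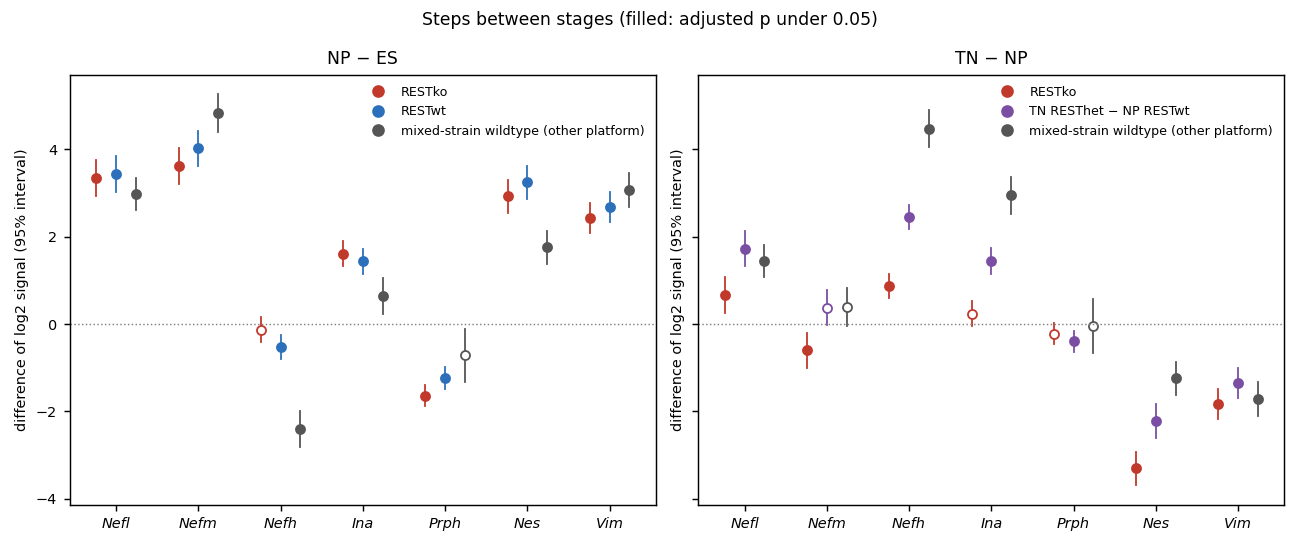
Differences of log2 signal between successive stages (vertical axes, 95% intervals) for each gene. They are shown for RESTko cells, for RESTwt cells, and for mixed-strain wildtype cells on the other platform. Between NP and TN, the RESTwt series is replaced by TN RESThet minus NP RESTwt, which crosses genotypes. Filled points were called. Nes and Vim rose between ES and NP and fell between NP and TN in each course, and Nefh rose between NP and TN in each.

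The mixed-strain wildtype course, on other probes and other cells, gave the same members a second view with 2 arrays per stage. Nefl had 6.89 and 6.78 at ES, 9.73 and 9.90 at NP, and 11.06 and 11.45 at TN. Nefm had 2.72 and 3.03 at ES, 7.45 and 7.95 at NP, and 8.02 and 8.16 at TN. The rise between ES and NP was 2.98 for Nefl and 4.82 for Nefm, and Nefl rose again at TN (1.44, adjusted p = 6.63e-05, limma). A second probe set of Nefl gave 3.64 in the earlier and 2.21 in the later step. Nefm at ES stood 11.7 to 21.5% of the way up the ranked genes, and so dim a signal can understate a fold change. Nefm was not called in the later step (0.39, adjusted p = 0.127, limma), but it was without NP array b (0.64, adjusted p = 0.0269).

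Nefh had 6.02 and 5.78 at ES, 3.49 and 3.51 at NP, and 8.23 and 7.71 at TN. It dipped at NP, by -2.40 from the ES stage (adjusted p = 1.4e-05, limma), and was 22.2-fold higher at TN than at NP. Ina had 7.98 and 7.94 at ES, 8.34 and 8.88 at NP, and 11.49 and 11.61 at TN, so that most of its rise fell in the later step (0.65 and then 2.94). Its 2 other probe sets gave 0.62 and 0.38 in the earlier step, the second not called (adjusted p = 0.0921, limma over all probe sets), and 2.92 and 2.91 in the later. The earlier step of Ina was no longer called without either ES array or without NP array b (adjusted p = 0.0871 to 0.138). Prph stayed between 3.48 and 4.81 on all 6 arrays and was called in neither step. Between ES and NP it differed by -0.71 (adjusted p = 0.0658, limma), which was called without ES array a (-1.17, adjusted p = 0.00447), with the intensity trend (adjusted p = 0.0487) and with the replicate block (0.0429). Its 3 other probe sets differed by -0.01 to 0.17 in that step.

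Nes had 6.67 and 6.56 at ES, 8.16 and 8.58 at NP, and 7.10 and 7.15 at TN. Vim had 9.19 and 8.80 at ES, 12.05 and 12.08 at NP, and 10.50 and 10.20 at TN. Both peaked at NP, with steps of 1.75 and -1.24 for Nes and of 3.07 and -1.72 for Vim. The 2 other probe sets of Nes gave 0.96 and 0.06 between NP and ES, and -0.95 and -0.38 between TN and NP. The second was called in neither step (adjusted p = 0.851 and 0.111, limma over all probe sets). The size of both steps therefore depends on the probes. In this course 38.9% of all 18194 genes were called between ES and NP (19.9% higher, 19% lower) and 50.8% between NP and TN (21.7% higher, 29.1% lower).

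Across the 18 arrays, Nefl ran most closely with Ina and Nefm among the members (Pearson's r = 0.961 and 0.960), and Nes with Vim (r = 0.937). Nefh ran less closely with Nefl (r = 0.566) and Nefm (r = 0.368), and Prph ran against Nefl (r = -0.947). These correlations rest mostly on the stages that all arrays share and are a description only. Among all other named genes, the pattern most like that of Nefl was found in Fbxl16 (r = 0.996), Flywch1 and Dpysl2 (both r = 0.992). For Ina these were Gdap1l1 (r = 0.993), Mapk8ip2 (r = 0.990) and Crmp1 (r = 0.988), and for Nefm Zfp61, Igf1r and Fam216a (r = 0.985 to 0.986). Nefh was followed less closely, by Bicdl1 (r = 0.965), Nt5c2 (r = 0.962) and Sult4a1 (r = 0.960). Prph was nearest to Stat4 (r = 0.991), Frrs1 and Dnah8. For Nes the nearest were Nrarp (r = 0.990), Reep3 and Dll3, and for Vim Vezf1 (r = 0.985), Heg1 and Ccnj.

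The motor, sensory and autonomic neuron genes, in whose cells peripherin is typical, gave 0 calls at ES, 2 higher at NP and 1 higher at TN among 11 measured. Th, the enzyme that makes L-DOPA, rose by 1.71 at NP, and the vesicular acetylcholine transporter Slc18a3 by 0.36 at NP and 0.65 at TN. At TN, 9 of the 11 stayed below the array median in RESTko and also in RESThet arrays, including Isl1, Mnx1, Chat and Phox2a. Prph itself lay between 33.2 and 39.3% of the way up the ranked genes in the TN arrays of both labels.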

How the data were processed

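Total RNA of 24 samples was measured on 2 Affymetrix platforms, without read depth; array number limits precision. The authors deposited one log2 signal per probe set and array. Per the submitters' processing notes oligo 1.14.0 was used; the sources used here do not state background correction or normalization. Values were used as deposited. Probe sets were named from a platform annotation table: 21789 of 35556 and 34958 of 45101 had a single symbol (1621 and 932 several, 12146 and 9211 none), giving 19938 and 18194 genes by highest mean.

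Group means were fitted to all arrays of a platform with limma 3.58.1 in R 4.3.3 (lmFit, eBayes), never across platforms. The replicate letters were not used as a block: the labels tie no letter to a batch, and not every same-letter pair deviated together. Summed list signals are on the linear scale. Genes are named by a rule: the members, Rest, the called list genes with the largest differences (up to 2, or 4 beside a member) and the 3 nearest patterns. Other list genes named as below the array median, and Cdk5r1, Kif5c, Lmna and the change of effect of the keratins, were chosen after their values were seen. Members, lists and rule were chosen with earlier results of these data known. Alternatives were a replicate block, the compared groups alone, other normalizations, a dim filter, other probe summaries, array weights, an intensity trend, and omission of single arrays from the groups compared.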

Additional observations from a re-analysis of the deposited data

Results flagged for a closer look

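For 4 of the 7 filament genes, and for 3.91% of all genes, the test of the difference itself called the effect of the genotype different between NP and TN. Over all genes the effect was lower at TN for 2.51% and higher for 1.4%. The calls of Nefh and Ina held under each alternative run, while those of Nefl and Nes did not. The effect at TN minus that at NP was -1.58 for Nefh, -1.21 for Ina, -1.08 for Nes and -1.06 for Nefl (limma, adjusted p = 9.3e-05, 0.00167, 0.0248 and 0.0377). The RESTko arrays were set against RESThet arrays at TN and against RESTwt arrays at NP, so stage and the compared genotype cannot be told apart. The single groups hold 3 arrays or fewer and were not tested for outlying arrays.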

How the results depend on the processing

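Over the 7 genes and 11 comparisons, 1148 alternative values kept the direction and side of the threshold, 26 lost a call, 20 gained one and 17 changed sign, all 17 in differences not called. With the replicate block 5, 4 and 0 members were called at ES, NP and TN, as without it; same-letter arrays of the 2 genotypes deviated together with r between -0.0517 and 0.152 (ES), 0.00667 and 0.399 (NP), and -0.142 and 0.0847 (TN), and the block gained 1 call, Prph between ES and NP in the mixed strain (adjusted p = 0.0429). For the change of effect between NP and TN, 2 members were called with every probe set tested and 2 to 5 when single arrays were left out, against 4. Nefl lost that call with every probe set tested (adjusted p = 0.0847), array weights (0.0852) and the intensity trend (0.0568), and Nes on the compared groups alone (0.0598) and with every probe set tested (0.0617). At TN, 0 to 1 members were called when single arrays were left out. Sign changes at TN were Ina with quantile normalization (-0.0189), Nefl with median centring (0.00683) and array weights (0.00542), and, leaving out single arrays, Nefl (-0.121 to 0.0938), Nefm (-0.306 to 0.0234) and Prph (-0.143 to 0.0967). Between ES and NP the change of effect spanned signs for Ina (-0.0274 to 0.345) and Nefl (-0.312 to 0.0664), and Prph between NP and TN of the mixed strain did so (-0.198 to 0.112, and 0.0246 as mean over probe sets). Leaving out a mixed-strain array left 1 in its stage, assumed to vary like the others. Median centring moved the median of all genes between NP and ES to -0.21 in RESTko and -0.25 in RESTwt cells, against -0.04 and -0.07 as deposited, and between NP and TN to -0.11 in RESTko cells, against 0.13. The cause of these changes was not tested. Dim signals, such as Nefm in RESTwt and mixed-strain ES cells and Prph at NP and TN, can understate a fold change. Prph was not dim in the RESTko and RESTwt ES arrays, at 59.3 to 64.1% of the way up the ranked genes. The SE of its genotype difference at ES was 0.12.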

Other observations

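Within the groups, the same arrays stood low or high for several filament genes. In ES cells array c was the lowest of the RESTko group and of the RESTwt group for Nefl, Nefm, Ina and Vim. Nefh and Nes differed from these, being highest in RESTko array c and lowest in RESTwt array c. Among RESTwt progenitors array b was the lowest for Nefl, Nefm, Ina and Vim and the highest for Nefh (6.08 against 5.86 and 5.80 in arrays a and c). Among RESTko neurons array a was the highest for Nefl, Nefm, Nefh and Ina and the lowest for Nes, Vim and Prph.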
